A study of Mus musculus with 8 samples.

Results

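Eph receptors and their membrane-bound ligands, the ephrins, were described in pancreatic tumours of 8 mice, in RNA from cells that FACS had purified for EpCAM. The set was the 10 gene symbols Epha1, Epha2, Epha4, Epha7, Ephb2, Ephb3, Ephb4, Efna1, Efnb1 and Efnb2, matched to the symbol column of the deposited count table, and all 10 were found among its 24537 genes. It holds 7 receptors and 3 ephrins of a family of 22 in mouse, and the other 12 family genes are given after them. All mice were on the FVB/NJ strain, 44 to 49 days old at resection, with Trp53 f/f, Rosa26 LSL-Luc and Pdx1-Cre among the alleles that both groups shared. The 4 tumours labelled KO were Lifr f/f. Of the 4 labelled WT, replicates 1 and 2 were Lifr f/+ and replicates 3 and 4 were Lifr +/+. Pdx1 drives Cre in pancreatic epithelium, so cells outside that lineage in the same tumours would keep their floxed alleles. Lifr codes for the receptor subunit of leukaemia inhibitory factor, and the comparison asks how expression differs in tumour cells with Lifr deficiency.

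Eph receptors are the largest family of receptor tyrosine kinases and are activated by ephrins on the surface of a neighbouring cell. A-class ephrins are held in the membrane by a lipid anchor and mostly bind EphA receptors, while B-class ephrins span the membrane and mostly bind EphB receptors. Binding signals in both directions, forward through the receptor's kinase and in reverse through the ephrin. In epithelia the system sorts cells and controls adhesion, and in tumours EphA2 is known to signal with or without a bound ligand.

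Each tumour had between 14938875 and 22698340 gene counts in total. Lifr was higher in the tumours labelled KO (183 ± 34.5 CPM, counts scaled to a common library size by TMM, against 97.8 ± 22.2 CPM, SD, n = 4 each), a direction opposite to the label (edgeR adjusted p = 0.0121, and 0.0638 with only f/+ controls). Since exon counts summed over the gene leave the deletion itself unchecked, groups are named by their labels throughout. Epcam, the antigen of the sort, was at 421 ± 57.7 against 775 ± 96.5 CPM. The mean log2 CPM of 25 epithelial markers lay between 6.47 and 6.77 in tumours labelled KO and between 7.08 and 7.69 in those labelled WT. That of 16 macrophage markers lay between 9.51 and 9.80 against 8.12 and 9.002. Neither range overlapped (exact two-sided permutation p = 0.0286 for each, the smallest that 4 against 4 allows). Fewer cells of a type and less RNA per cell cannot be told apart in such bulk samples.

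Levels of different genes were compared per kilobase of transcript, as the FPKM values the authors deposited, which kept the same transcript as the count table for all 10 genes. No TMM scaling was applied to them. The median log2 difference between the groups over all genes tested was −0.11 on FPKM (pseudocount of 1) and 0.011 with TMM. Group means in FPKM are therefore not on the scale of the fold changes below. Epha2 was the most abundant member in each of the 8 tumours, with 31.6 ± 9.32 FPKM in tumours labelled WT and 15.3 ± 1.57 FPKM in those labelled KO (SD, n = 4 each). Ephb4 (14.0 ± 1.41 FPKM in tumours labelled WT), Efna1 (13.9 ± 2.66), Efnb2 (13.2 ± 1.34) and Efnb1 (11.8 ± 1.58) followed, and neighbours among these 4 changed places between tumours. Ephb2 (6.25 ± 1.16 FPKM), Epha1 (5.22 ± 1.40) and Ephb3 (4.73 ± 0.876) formed a lower tier in which the order again varied by tumour. Epha4 (1.61 ± 0.464 FPKM) came next and Epha7 (0.335 ± 0.0750) last in all 8 tumours. In the tumours labelled KO the same tiers held, with Ephb4 at 7.16 ± 0.880 FPKM, Efnb1 at 7.05 ± 0.805, Efna1 at 6.79 ± 0.708 and Efnb2 at 6.74 ± 0.727. These 4 levels differed by less than the spread between tumours. The counted Ephb2 transcript, at 10909 bases, was the longest of the 10, and the place of Ephb2 in the lower tier rests on that length. Not divided by length, Ephb2 averaged 116 CPM in tumours labelled WT, beside 102 CPM for Ephb4.

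**Figure D1:**
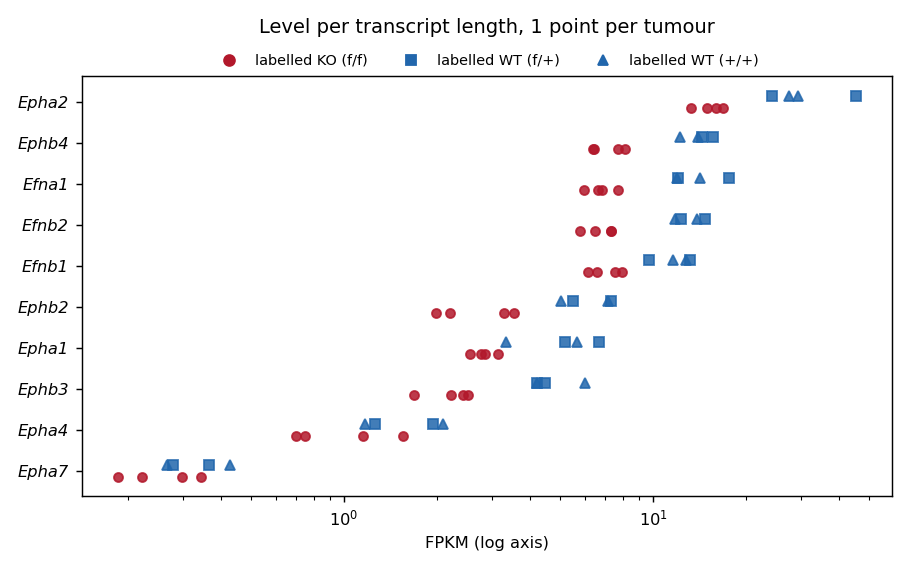
FPKM (log axis) of the 10 genes, 1 point per tumour, with tumours labelled KO in red circles, f/+ in blue squares and +/+ in blue triangles. Epha2 lies at the right in every tumour, from 13.2 to 45.2 FPKM, and Epha7 at the left, from 0.186 to 0.427 FPKM.

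In the comparison of the labelled groups, 8 of the 10 genes were lower in the tumours labelled KO and none was higher, by edgeR's quasi-likelihood test with Benjamini-Hochberg adjustment over all 14728 genes tested (called at an adjusted p under 0.05). Epha4 and Epha7 did not pass. Over all genes tested, 10.8% were called lower and 11.1% were called higher. The 10 genes were chosen with earlier results of these data known, so their share is not independent of those results. The median log2 fold change was −0.79 over the 10 genes and 0.011 over all genes tested. The groups did not overlap for 7 of the 10 genes, beside 12.3% of all genes that were lower in every tumour labelled KO. All 10 had enough counts to be tested, from 35 to 84 per tumour for Epha7 and from 1446 to 6053 for Epha2. With KO replicate 1 and WT replicate 2 left out together, the tumours with most acinar RNA in their groups, 7 of the 10 were called, all lower, and Epha1 was lost (edgeR adjusted p = 0.121). The groups still differed in acinar RNA in that fit. The mean log2 CPM of acinar markers was 7.67, 9.63 and 5.30 in KO replicates 2 to 4. It was 4.39, 2.88 and 4.03 in WT replicates 1, 3 and 4. The part of acinar RNA in the calls was not tested.

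**Figure D2:**
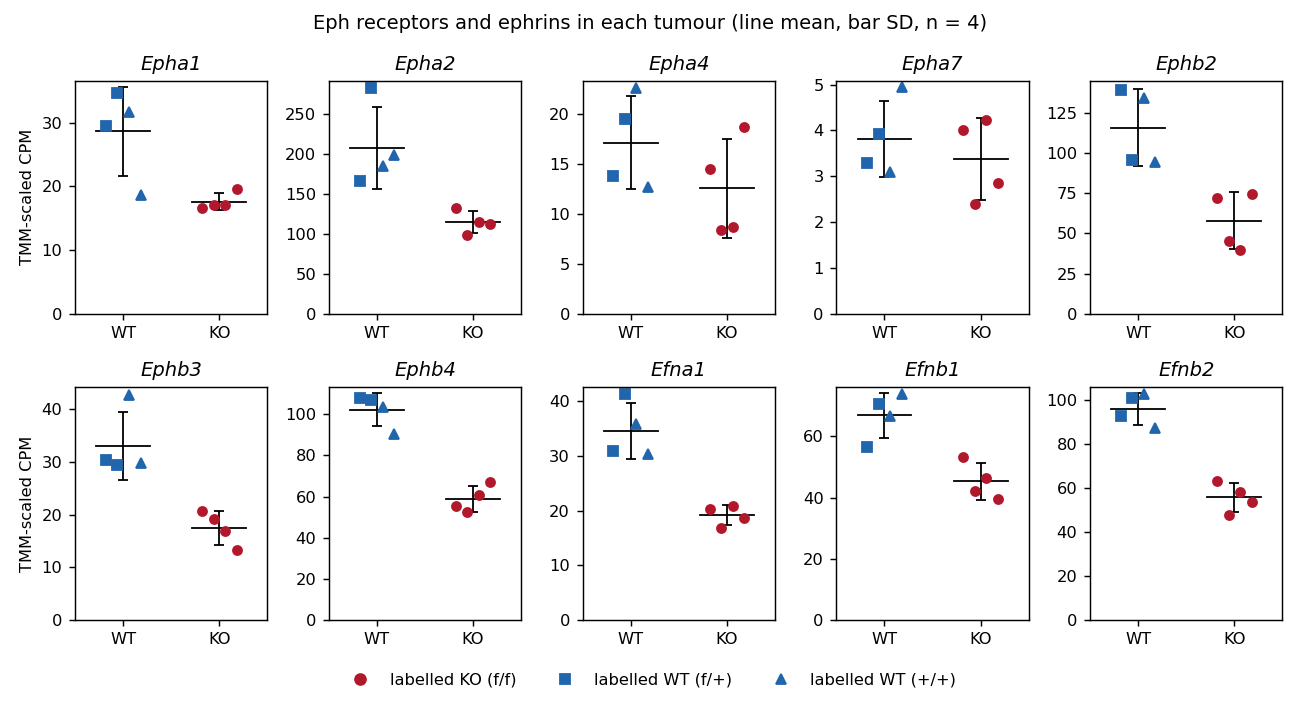
TMM-scaled CPM of each of the 10 genes in the 8 tumours, with a line at the group mean and a bar of 1 SD. Groups are apart for Epha2, the 3 EphB receptors and the 3 ephrins, while WT replicate 4 reaches the KO values for Epha1, and both groups overlap for Epha4 and Epha7.

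Among the EphA receptors, Epha2 showed the clearest difference. Epha2 binds ephrin-A1 and is a known transcriptional target of RAS-MAPK signalling that is raised in many carcinomas. The transcript lies on mm10 chromosome 4 from 141301221 to 141329384 (plus strand). It was at 132, 98.6, 115 and 112 CPM in KO replicates 1 to 4 and at 166, 282, 184 and 199 CPM in WT replicates 1 to 4. Every tumour labelled KO lay below every tumour labelled WT, and WT replicate 2 stood above the rest. The log2 fold change was −0.86 ± 0.17 (SE), with a 95% interval of −1.24 to −0.47 (edgeR adjusted p = 0.0105), a level 1.81-fold lower. Without WT replicate 2 it was −0.67 and still called.

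Epha1, the founding member of the family, was called lower on a less stable footing. It was at 16.6, 17.1, 17.01 and 19.6 CPM in the tumours labelled KO and at 29.5, 34.6, 31.7 and 18.7 CPM in those labelled WT. The groups overlapped, since WT replicate 4 lay among the tumours labelled KO and the other controls were well above them. Its log2 fold change was −0.70 ± 0.18 (edgeR adjusted p = 0.0250). The call was lost when any 1 of KO replicates 1, 2 and 3 or WT replicates 1, 2 and 3 was left out (highest adjusted p = 0.0701), with log2 fold changes from −0.86 to −0.60 over all 8 such fits.

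Epha4 and Epha7, best known from axon guidance, did not pass the test. Epha4, which binds ephrins of both classes, was at 14.5, 8.39, 8.68 and 18.7 CPM in the tumours labelled KO and at 13.8, 19.5, 22.5 and 12.7 CPM in those labelled WT. KO replicates 2 and 3 were the lowest, while KO replicates 1 and 4 lay within the range of the controls. The log2 difference was −0.44 with a 95% interval of −1.12 to 0.23 (edgeR adjusted p = 0.320). Epha7 was at 2.39 to 4.24 CPM against 3.09 to 4.95 CPM, a log2 difference of −0.17 with an interval of −0.75 to 0.40 (edgeR adjusted p = 0.662). Both intervals include falls as large as those of some genes that were called.

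All 3 EphB receptors were lower in the tumours labelled KO, with no overlap between the groups. Ephb2 and Ephb3 are targets of WNT and TCF signalling that position cells along intestinal crypts. Ephb2 was at 71.9, 45.5, 39.7 and 74.2 CPM in the tumours labelled KO and at 139, 95.6, 134 and 94.4 CPM in those labelled WT. Both groups contained a higher and a lower pair, and the higher KO pair stayed below the lower WT pair. The fall of −0.999 ± 0.23 on the log2 scale (95% interval −1.53 to −0.47, edgeR adjusted p = 0.0187) was the largest of the 10 in size in this fit. Ephb3 had the larger value with only +/+ controls (−1.06 against −0.98). The same held without KO replicate 2 (−0.96 against −0.90), KO replicate 3 (−0.90 against −0.85) or WT replicate 1 (−0.96 against −0.90). In limma on FPKM with a pseudocount of 1, Epha2 had the larger value (−0.97 against −0.96). Ephb2 was no longer called without KO replicate 2 (edgeR adjusted p = 0.0577). Ephb2 also lost its call with only f/+ or only +/+ tumours as controls (adjusted p = 0.0649 and 0.0803).

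Ephb3 was at 20.8, 19.1, 16.8 and 13.3 CPM in the tumours labelled KO and at 30.3, 29.3, 42.7 and 29.9 CPM in those labelled WT. WT replicate 3 stood above the other controls, which lay close together. Ephb3 changed by −0.92 ± 0.17 on the log2 scale (edgeR adjusted p = 0.00899) and by −0.77 without that tumour (adjusted p = 0.0194).

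Ephb4, the receptor of ephrin-B2, is known from veins and from epithelial tumours. Its level was 55.4, 52.6, 60.8 and 67.1 CPM in the tumours labelled KO and 108, 107, 104 and 90.7 CPM in those labelled WT. The tumours of each group lay close together and the groups were far apart. Ephb4 had a log2 fold change of −0.79 ± 0.10, with an interval of −1.01 to −0.58 (edgeR adjusted p = 0.00440), and −0.87 to −0.74 with any 1 tumour left out. The mean log2 CPM of 10 endothelial markers ranged from 1.90 to 2.54 under the KO label and from 1.62 to 2.75 under the WT label (two-sided exact permutation p = 0.629). Of these 10, Eng was called higher (67.0 against 32.7 CPM, edgeR adjusted p = 0.0474) and the other genes were not called, among them Pecam1 (8.52 against 7.42 CPM) and Vwf (8.68 against 11.8 CPM). The part of endothelial cells in the Ephb4 level was not tested.

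The 3 ephrins in the set were lower as well and did not overlap between the groups. Efna1, a ligand of EphA2, was at 20.3, 16.8, 20.8 and 18.7 CPM in the tumours labelled KO and at 30.8, 41.4, 35.9 and 30.3 CPM in those labelled WT. The tumours labelled KO were within a narrow range and WT replicate 2 was again the highest. For Efna1 the log2 fold change was −0.85 ± 0.12 (95% interval −1.13 to −0.57, edgeR adjusted p = 0.00460).

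Efnb1, an X-linked ligand of EphB receptors that spans the membrane, showed the smallest of the 8 called differences. It was at 53.1, 42.1, 46.2 and 39.5 CPM in the tumours labelled KO and at 56.5, 70.5, 66.7 and 73.7 CPM in those labelled WT. KO replicate 1 came close to WT replicate 1, and the other tumours were well apart. For Efnb1 the log2 fold change was −0.56 ± 0.12 (95% interval −0.83 to −0.30, edgeR adjusted p = 0.0122).

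Efnb2, the ligand of EphB4 and known from arteries, was at 63.1, 47.7, 58.0 and 53.6 CPM in the tumours labelled KO and at 92.7, 100.8, 103 and 87.3 CPM in those labelled WT. The lowest control was well above the highest tumour labelled KO. For Efnb2 the log2 fold change was −0.78 ± 0.10 (95% interval −1.01 to −0.56, edgeR adjusted p = 0.00440).

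Promoters were compared because 8 of the genes moved in the same direction. The 250 bases before the annotated start were read for all 10 genes from RefSeq (GRCm38.p6, the assembly mm10 names) and searched on both strands for 5 core motifs. These were AP-1 (TGANTCA), TEAD (GGAATG), ETS (CCGGAA), STAT (TTCNNNGAA) and TCF (CTTTGA). No letter pattern was shared by all, and 4 of the genes held any of the motifs. A TEAD match was found in 3 of 10 genes, beside 12.6% of all 32536 promoters. TCF and ETS matches were found in 1 gene each, beside 13.9% and 12.1%, and AP-1 and STAT letters (6.73% and 7.04% of all) in none. The windows had a median GC content of 65.0%, beside 52.4% for all promoters. The 4 windows with a match are printed 5′ to 3′ on the gene's strand, with each matched motif in capitals. They are Epha1 at chr6:42373269-42373518 (minus strand), Epha2 at chr4:141300971-141301220 (plus), Ephb2 at chr4:136836013-136836262 (minus) and Efnb2 at chr8:8661243-8661492 (minus).
Epha1: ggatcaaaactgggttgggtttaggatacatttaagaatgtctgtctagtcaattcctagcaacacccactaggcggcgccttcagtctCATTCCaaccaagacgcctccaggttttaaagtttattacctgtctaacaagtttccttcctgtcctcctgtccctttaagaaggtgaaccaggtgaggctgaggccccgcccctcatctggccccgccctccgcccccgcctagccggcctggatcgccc
Epha2: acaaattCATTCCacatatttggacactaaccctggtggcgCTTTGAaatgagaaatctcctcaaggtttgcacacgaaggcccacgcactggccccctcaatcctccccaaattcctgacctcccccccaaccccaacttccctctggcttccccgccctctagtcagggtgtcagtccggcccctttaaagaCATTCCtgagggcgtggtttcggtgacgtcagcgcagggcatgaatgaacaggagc
Ephb2: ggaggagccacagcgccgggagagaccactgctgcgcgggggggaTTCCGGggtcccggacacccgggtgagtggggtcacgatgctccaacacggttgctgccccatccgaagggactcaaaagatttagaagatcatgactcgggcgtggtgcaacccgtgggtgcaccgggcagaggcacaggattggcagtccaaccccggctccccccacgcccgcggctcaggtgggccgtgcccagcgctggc
Efnb2: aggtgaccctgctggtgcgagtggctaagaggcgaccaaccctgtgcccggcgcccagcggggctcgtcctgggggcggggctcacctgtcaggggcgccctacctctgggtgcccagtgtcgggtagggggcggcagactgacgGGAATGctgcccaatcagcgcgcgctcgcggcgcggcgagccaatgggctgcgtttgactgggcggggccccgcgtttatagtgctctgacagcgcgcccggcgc
The Epha2 window holds a pair of TEAD matches on the opposite strand (CATTCC), 243 and 56 bases before the start, and a TCF match at 209 bases. The TEAD matches of Epha1 and Efnb2 begin 161 and 105 bases before the start, and the ETS match of Ephb2 (TTCCGG) begins 205 bases before it. For Efnb2 the annotated start lies 469 bases from the start of the counted transcript. A match describes letters in this window and shows no binding.

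Of the 12 other family genes, 8 had enough counts to be tested, and 4 of these were lower and none higher in the tumours labelled KO. Among all genes tested, 10.8% were called lower and 11.1% higher. The ephrin-A genes Efna3 and Efna4 lie beside Efna1 on chromosome 3, in mm10 from 89314951 to 89322879 and from 89333393 to 89338028, with Efna1 from 89271730 to 89279645. Efna4 was at 12.3, 12.3, 8.54 and 17.6 CPM in the tumours labelled KO and at 28.6, 21.8, 32.9 and 25.4 CPM in those labelled WT. The groups did not overlap, and the log2 fold change was −1.10 ± 0.22 (edgeR adjusted p = 0.0106). Efna3 had 8, 3, 3 and 6 counts in the tumours labelled KO and 19, 29, 38 and 20 in those labelled WT. Its log2 fold change was −2.21 ± 0.32 from low counts (edgeR adjusted p = 0.00466). Every KO count of Efna3 lay below the filter's count minimum of 10. It was therefore tested only through the tumours labelled WT, and its calls are not independent of the filter. Efna5, another A-class ephrin, had 16.5 ± 2.24 CPM in the tumours labelled KO, below 33.1 ± 4.58 CPM in the controls (SD, n = 4 each), which is −1.001 ± 0.13 on the log2 scale (edgeR adjusted p = 0.00440). Ephb6, a family member without kinase activity, fell from 22.2 ± 2.53 to 15.3 ± 1.22 CPM (−0.54 ± 0.11, edgeR adjusted p = 0.0121). These 4 calls held with any 1 tumour left out. With only the f/+ tumours as controls Efna4 and Ephb6 were not called (edgeR adjusted p = 0.0601 and 0.0752). When libraries were scaled to epithelial markers, as described below, only Efna3 of these 4 kept its call.

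The remaining tested genes were near the limit of detection. Epha3 was at 1.75 ± 0.805 against 1.20 ± 0.629 CPM, Ephb1 at 0.618 ± 0.388 against 0.761 ± 0.376, Efna2 at 1.66 ± 0.404 against 1.13 ± 0.249, and Efnb3 at 0.990 ± 0.257 against 1.495 ± 0.353 CPM (tumours labelled KO against WT, SD, n = 4 each). None of these 4 differences passed (edgeR adjusted p = 0.171 to 0.761). Epha5, Epha6, Epha8 and Epha10 were not tested, with at most 3, 0, 19 and 1 counts in any tumour. The 22 genes together took 0.0379% to 0.0458% of gene counts where the label was KO, below the 0.0760% to 0.0960% under the WT label.

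Epithelial markers were lower in the same tumours, so each gene was also set against them. Of the 25 epithelial markers, 19 fell and none rose, beside 10.8% and 11.1% of all genes. Their median log2 fold change was −0.73, close to that of the 10 Eph and ephrin genes. With libraries scaled to make the epithelial mean equal, which moves the median of all genes from 0.011 to 0.72 and calls 65.7% of them (64.7% higher and 1.0% lower), 0 of the 10 genes passed and 0 reached an unadjusted p of 0.05 (edgeR, the only tool run with this scaling). Relative to the epithelial list the log2 differences ran from −0.31 for Ephb2 (95% interval −0.82 to 0.20) to 0.49 for Epha7 (−0.21 to 1.19). Epha2 was at −0.13 (−0.51 to 0.25), Ephb4 at −0.086 (−0.44 to 0.27) and Efnb2 at −0.077 (−0.41 to 0.26). Efnb1 (0.14) and Epha1 (0.045) turned above 0. Among the other family genes Efna3 stayed lower under this scaling (−1.50, edgeR adjusted p = 0.0067), and Efna2 was called higher (1.25, adjusted p = 0.0144). Efna3 had passed the count filter only through the tumours labelled WT. Efna4 (−0.40), Efna5 (−0.28) and Ephb6 (0.15) lost their calls (edgeR adjusted p = 0.155 to 0.571).

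**Figure D3:**
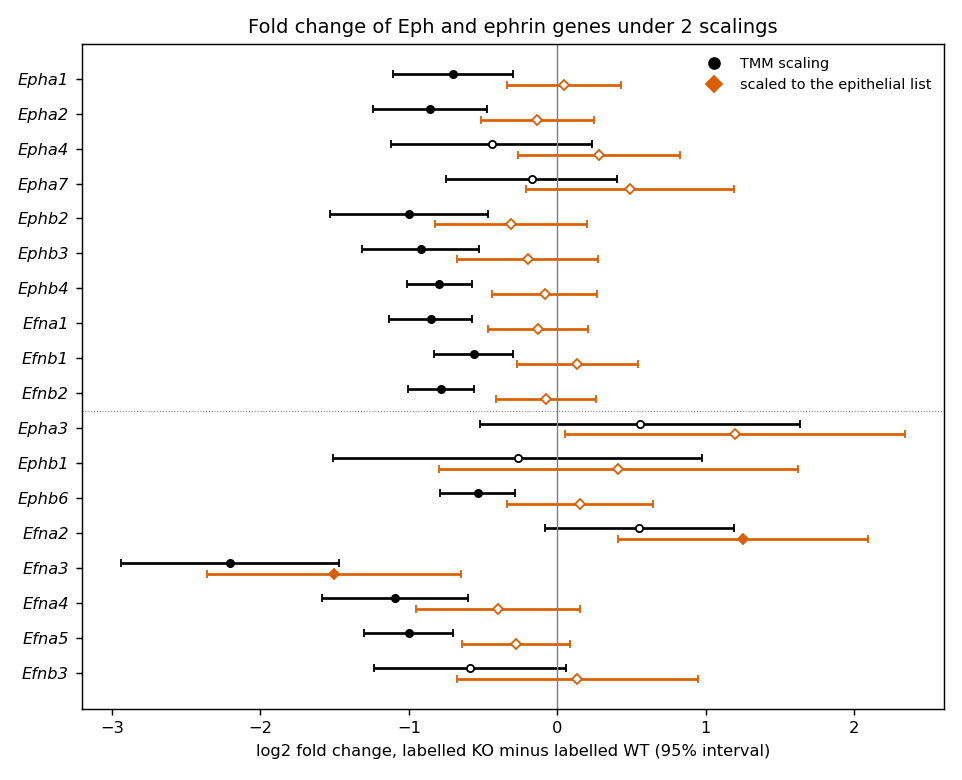
Log2 fold change (labelled KO minus labelled WT) with its 95% interval for the 10 genes above the dotted line and 8 other family genes below it. Black circles are TMM-scaled fits and orange diamonds are libraries scaled to the epithelial list, filled where called. Of the 10 genes, 8 are filled and below 0 in black and none is filled in orange.

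The same was measured without any library scaling, as a member's log2 CPM minus the epithelial mean within each tumour. None of the 10 differences between groups passed an exact two-sided permutation test with all 8 tumours (unadjusted p = 0.0571 to 0.714 over 10 comparisons). Without WT replicate 4 the Epha7 difference was 0.77, and without KO replicate 3 that of Efna1 was −0.15 (exact permutation p = 0.0286 for each, the smallest that 4 against 3 allows). Efna1 came nearest, at −2.41 ± 0.0731 in tumours labelled KO and −2.28 ± 0.0863 in those labelled WT, and the ranges overlapped. Macrophage markers rose in 14 of 16 cases in the same tumours, beside 11.1% of all genes. They took 2.23% to 2.79% of counts against 0.923% to 1.69%. The leukocyte list rose in 9 of 10 cases, with a mean log2 CPM of 8.25 to 8.52 against 7.16 to 7.74 (exact permutation p = 0.0286). The part of these cells in the lower Eph and ephrin levels was not tested. Acinar markers were at 5.30 to 10.2 against 2.88 to 7.94 in mean log2 CPM, and fibroblast markers at 4.50 to 6.20 against 3.50 to 4.93. Groups overlapped for both (exact permutation p = 0.0857 for each). The 13 acinar markers tested all had log2 fold changes above 0, with a median of 2.81, and none was called. The acinar list took 0.183% to 3.96% of counts in tumours labelled KO against 0.0460% to 0.998%. Among fibroblast markers 2 of 10 rose, beside 11.1% of all genes, with a median log2 fold change of 1.16.

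**Figure D4:**
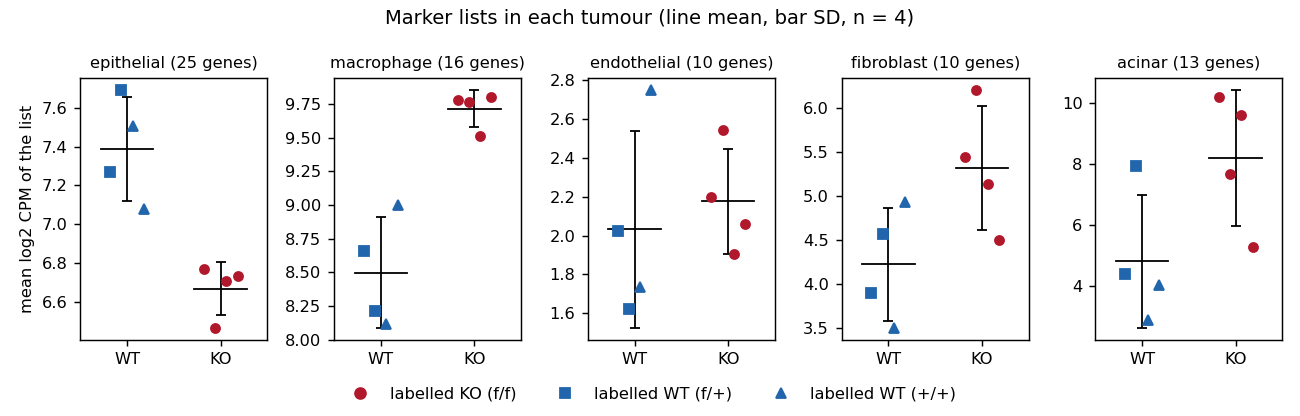
Mean log2 CPM of 5 marker lists in each tumour, with a line at the group mean and a bar of 1 SD. Epithelial markers are lower and macrophage markers higher in every tumour labelled KO, and the endothelial, fibroblast and acinar lists overlap between the groups.

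Receptor levels were also set against those of their ligands. The log2 CPM of a receptor minus that of a ligand it binds was compared for 6 pairs, and no difference between the groups passed (exact two-sided permutation test, unadjusted p = 0.114 to 0.971). Epha2 minus Efna1 was 2.57 ± 0.0984 in tumours labelled KO and 2.56 ± 0.204 in those labelled WT (SD, n = 4 each). Ephb4 minus Efnb2 was 0.0858 ± 0.211 against 0.0942 ± 0.0886. These are differences of counts not divided by length. The EphB receptors of the crypt system had the widest gaps: Ephb2 minus Efnb1 was 0.309 ± 0.480 against 0.775 ± 0.453, and Ephb3 minus Efnb1 was −1.38 ± 0.181 against −1.03 ± 0.314. Both were overlapping between the groups. Epha1 minus Efna1 was −0.120 ± 0.195 against −0.299 ± 0.275, and Epha4 minus Efnb2 was −2.21 ± 0.528 against −2.51 ± 0.288.

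**Figure D5:**
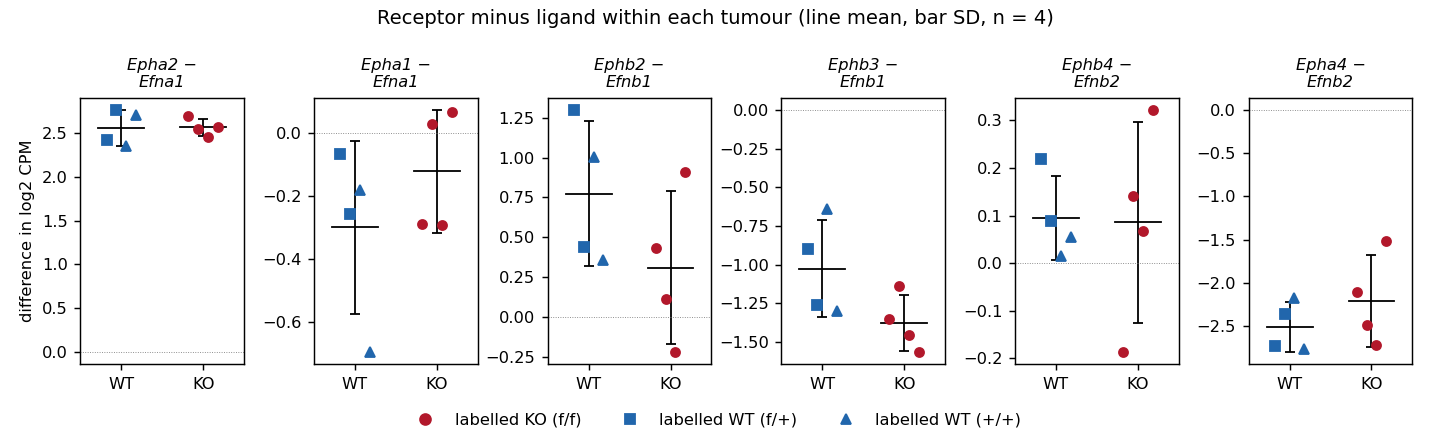
Difference in log2 CPM between a receptor and a ligand in each tumour for 6 pairs, with a line at the group mean and a bar of 1 SD. The groups overlap in all 6 panels, and the means of Epha2 minus Efna1 and of Ephb4 minus Efnb2 nearly coincide.

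The tumours labelled WT held both Lifr f/+ and Lifr +/+ genotypes, which were set apart in a fit of 3 genotypes (15284 genes). Between f/+ and +/+ tumours 0 of the 10 genes passed and 0 reached an unadjusted p of 0.05, beside 0.00654% called and 782 genes with such a p among all genes (edgeR, 2 tumours each). The log2 differences ran from −0.29 for Ephb3 (95% interval −0.83 to 0.26) to 0.34 for Epha1 (−0.20 to 0.89). Compared with f/+ tumours, 6 of the 10 genes were lower in f/f tumours, beside 6.6% of all genes, and with +/+ tumours 5 were lower, beside 3.66%. Ephb3, Ephb4, Efna1 and Efnb2 were called in both of these comparisons, which share the f/f libraries. Epha1 was at −0.86 ± 0.20 against f/+ and −0.52 ± 0.20 against +/+ tumours, and only the first was called (edgeR adjusted p = 0.0323 and 0.149). Epha2 was at −0.96 ± 0.20 and −0.74 ± 0.20 (edgeR adjusted p = 0.0233 and 0.0650), and it was called in a fit of f/f and +/+ tumours alone (−0.74, adjusted p = 0.0319). Efnb1 was called against +/+ only (−0.63 ± 0.14, edgeR adjusted p = 0.0446), with −0.49 ± 0.14 against f/+ tumours (adjusted p = 0.0606). Ephb2 was called in neither (−1.02 ± 0.29 and −0.98 ± 0.29, edgeR adjusted p = 0.0583 and 0.0813). The difference between these contrasts is the f/+ against +/+ difference given above.

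Genes that act with Eph receptors moved in both directions. Of 37 effectors of forward signalling, 10 rose, 5 fell and 22 did not pass, with a median log2 fold change of 0.0086, beside 11.1% and 10.8% of all genes. Vav3, a guanine nucleotide exchange factor, rose from 16.5 ± 5.15 to 39.2 ± 5.67 CPM. Itsn1, an exchange factor for Cdc42, rose from 79.5 ± 30.9 to 270.3 ± 82.6 CPM, and Anks1, an adaptor that binds Eph receptors, from 68.4 ± 5.71 to 108 ± 17.1 CPM (log2 fold changes 1.25, 1.77 and 0.66). The adaptor gene Grb7 fell from 58.7 ± 14.2 to 31.2 ± 3.66 CPM (−0.91, SD, n = 4 each, edgeR adjusted p = 0.00732 to 0.00868 for these 4). The related adaptor genes Nck1 and Nck2, named after their values were seen, went opposite ways (0.54 and −0.78). With only +/+ tumours as controls, Itsn1 and Anks1 were not called (edgeR adjusted p = 0.0680 and 0.0712). Under the epithelial scaling 25 of the 37 were higher and 0 lower, with a median of 0.70. That is near the share of all genes, of which 64.7% were higher and 1.0% lower, with a median of 0.72. Grb7 (−0.17) and Nck2 (−0.077) were then not called (edgeR adjusted p = 0.348 and 0.718).

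Of 11 partners of ephrin-B tails, of which 2 are also in the forward list, 4 fell, 2 rose and 5 did not pass, with a median of −0.39. Beside these, 10.8% of all genes fell and 11.1% rose. Ptpn13, a phosphatase that binds ephrin-B tails through its PDZ domains, fell from 153 ± 12.4 to 87.1 ± 9.69 CPM (−0.82). Nck2 (−0.78) and the polarity gene Pard6b (−0.88) fell, and Sdcbp, which codes for the PDZ protein syntenin, rose from 491 ± 19.5 to 684 ± 35.2 CPM (0.48, edgeR adjusted p = 0.00440 to 0.0163 for these 4). The Pard6b call was lost without KO replicate 2 (edgeR adjusted p = 0.0531). With only +/+ tumours as controls the calls of Sdcbp and Nck2 were lost (edgeR adjusted p = 0.0612 and 0.0815). Scaled to the epithelial list, 4 of the 11 were higher and 0 lower, with a median of 0.33. This lies below all genes, with 64.7% higher, 1.0% lower and a median of 0.72. The calls of Ptpn13 (−0.11), Nck2 (−0.077) and Pard6b (−0.13) were then lost (edgeR adjusted p = 0.516 to 0.718).

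Among 12 proteases and phosphatases that cut or dephosphorylate Eph receptors and ephrins, 4 rose, 2 fell and 6 did not pass, with a median of 0.069. Of all genes tested, 11.1% rose and 10.8% fell. Ptpro, a phosphatase that acts on Eph receptors, rose from 22.2 ± 8.36 to 67.5 ± 14.4 CPM (1.60), Acp1, the low-molecular-weight phosphatase, from 4.26 ± 1.61 to 11.8 ± 1.01 CPM (1.46) and Ptprj by a log2 fold change of 0.77. Ptprf, which codes for the phosphatase LAR, fell from 301 ± 48.9 to 192 ± 19.2 CPM (−0.65, SD, n = 4 each, edgeR adjusted p = 0.00693 to 0.0109 for these 4). Ptprj was not called with only f/+ controls (edgeR adjusted p = 0.0621). Under epithelial scaling 9 of the 12 were higher and 0 lower, with a median of 0.78. Of all genes 64.7% were then higher and 1.0% lower, with a median of 0.72. Ptprf turned to 0.087 under this scaling and was not called (edgeR adjusted p = 0.670). The macrophage mean was 1.22 higher on the log2 CPM scale in the tumours where Vav3, Itsn1, Ptpro and Ptprj rose, and their part in these rises was not tested.

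WNT targets were listed because Ephb2 and Ephb3 belong to that programme in gut. The list was chosen with earlier results of these data known, so its share of calls is not independent of them. Of 13 tested, 8 fell and none rose, with a median of −0.66, beside 10.8% of all genes lower and 11.1% higher. Sox9, a transcription factor of ducts, fell from 106 ± 1.85 to 64.3 ± 8.44 CPM (−0.73) and Ccnd1, which codes for cyclin D1, from 449.9 ± 62.8 to 234 ± 43.3 CPM (−0.95). Tcf7, a WNT-pathway transcription factor gene, was lower by −0.66, and Sp5, a direct target, was at 0.473 ± 0.148 against 1.94 ± 0.787 CPM (SD, n = 4 each, edgeR adjusted p = 0.00440 to 0.0188 for these 4). Sp5 was near the limit of detection, at 0.375 to 0.693 CPM against 0.838 to 2.71 CPM. It passed the count filter through the tumours labelled WT, so its calls are not independent of the filter. The Tcf7 call was lost without KO replicate 2 or 3 (highest edgeR adjusted p = 0.0599). With only f/+ tumours as controls the call of Sp5 was lost (edgeR adjusted p = 0.0754), and with only +/+ tumours that of Tcf7 (0.128), which was also lost without KO replicate 1 and WT replicate 2 (0.0735). On the epithelial scale 1 of the 13 was lower (Sp5, −1.38, from that low level) and 3 were higher, with a median of 0.048. Of all genes 64.7% were higher and 1.0% lower on that scale, with a median of 0.72. Sox9 (−0.031), Ccnd1 (−0.24) and Tcf7 (0.048) were then not called (edgeR adjusted p = 0.273 to 0.887).

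The tested genes whose log2 CPM over the 8 tumours was most like that of each member were found by Pearson's r. Other members and genes with Gm-number or Rik names were left out of the search. This is a description over tumours that also share the group difference. The values are the highest over all genes searched, and with 8 tumours high values can arise by chance, so no p is given. Epha2 was most like Tgfa (r = 0.994), which codes for the EGF receptor ligand TGF-alpha, and the tetraspanin gene Tspan8 (0.990). Efna1 was most like Cdc42ep5 (0.994) and Lsr (0.994), the latter one of the 25 epithelial markers. Ephb4 was most like Pfdn1 (0.996) and Shroom1 (0.995), and Efnb2 most like Sgsm1 (0.993) and Plekhh1 (0.992). Ephb2 followed Slc29a4 (0.988) and Ttll7 (0.987), Ephb3 followed Tmc7 (0.986) and Chrd (0.982), and Efnb1 followed Npdc1 (0.985) and Bcl2l15 (0.983). Epha1 was most like Tox (0.997) and Ablim1 (0.987), and Epha4 most like Pgf (0.990), which codes for placental growth factor, and Mul1 (0.962). For Epha7, the least abundant member, the values were lower (Rps12 at 0.939 and Mir3960 at 0.928).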

How the data were processed

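RNA of FACS-sorted EpCAM-positive cells was measured in 8 tumours, and groups came from the sample titles. Per the file headers, the authors counted reads as whole-number counts over the exons of each mm10 gene with HOMER's analyzeRepeats, 1 transcript per gene and the plus-strand setting, without normalization. The second table the authors deposited holds FPKM values from the same program. FastQC 0.11.2, STAR 2.4.0k, HOMER and edgeR 3.6.8 are named in the submitters' processing notes without roles. Library strandedness is not given in the sources used here, and one shared allele is not reported here.

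Counts were tested with edgeR 4.0.16 in R 4.3.3 (glmQLFit, glmQLFTest). Genes were filtered by filterByExpr with a count minimum of 10 and a total of 15 before TMM scaling. P-values were adjusted over all genes. CPM is TMM-scaled, log2 CPM uses a prior count of 2, and SE and intervals come from the F statistic. Within-tumour differences and marker means were compared by exact permutation over 70 assignments, unadjusted. Precision is limited by 4 tumours a group. Per the labels tumours were dissected individually. Alternatives were DESeq2 1.42.0, limma 3.58.1 on log2 FPKM (pseudocounts 1 and 0.1), other scalings, no filter, other controls and leaving out each tumour. Members and lists were chosen with earlier results of these data known. Genes named were all members, the tested family genes, up to 4 called genes with the smallest p in each of 4 lists, Lifr and Epcam. The 2 tested genes most like each member were also named, members and genes with Gm-number or Rik names left out.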

Additional observations from a re-analysis of the deposited data

Results flagged for a closer look

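In 68 groups of 4 tumours checked, 4 had 1 tumour far from the other three, with a gap above Dixon's critical share of the group's range, and chance gives this in about 5% of groups. The Ephb3 level of WT replicate 3 was 42.7 CPM against 29.3 to 30.3 CPM in the other tumours labelled WT, a gap of 0.931 of the range. The same tumour had Epha4 highest relative to the epithelial list (0.836 of the range). WT replicate 4 had Efna1 and Efnb1 highest relative to that list (0.896 and 0.846 of the range), and it also had the lowest epithelial mean of the tumours labelled WT, at 7.08 in log2 CPM.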

How the results depend on the processing

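All 10 members stayed below 0 in each alternative except scaling to the epithelial list, where Epha1 (0.045), Epha4 (0.28), Epha7 (0.49) and Efnb1 (0.14) were above 0 and the count called went from 8 to 0. By construction this scaling moves every gene up, and 9678 genes were then called. With any 1 tumour left out, 6 to 8 members were called, all lower, and 1755 to 3241 genes in all against 3216. The gene count was 1926 with only f/+ controls, 1106 with only +/+ controls and 1892 without KO replicate 1 and WT replicate 2, with fewer tumours in each. Scaling by library totals moved the median of all genes to −0.17, the members' median to −0.97 and higher calls from 50.7% to 22.5% of calls. Limma on FPKM gave 23.5% at both pseudocounts.

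Relative to the epithelial list, FPKM with a pseudocount of 1 gave 0.0072 for Ephb3 (main value −0.20), and Epha4 (0.48) and Epha7 (0.76) then passed, as did Epha4 minus Efnb2 (0.51), while Epha2 minus Efna1 was −0.042. Epha4 (0.699 to 2.08 FPKM) and Epha7 (0.186 to 0.427 FPKM) lie near or below the pseudocount, which pulls their log2 changes towards 0. In limma on FPKM, pseudocounts of 1 and 0.1 gave −0.081 and −0.27 for Epha7 and −0.36 and −0.61 for Epha4. For Efnb2, at a higher level, they gave −0.87 and −0.96. The part of the pseudocount in these passes was not tested. With 1 tumour left out the ranges were −0.036 to 0.12 for Epha1, 0.40 to 0.77 for Epha7 and −0.15 to −0.082 for Efna1 against that list, of which Epha7 without WT replicate 4 and Efna1 without KO replicate 3 passed (exact permutation p = 0.0286). They were −0.061 to 0.075 for Epha2 minus Efna1 and −0.087 to 0.083 for Ephb4 minus Efnb2. No paired analysis was possible because replicate numbers were given in listing order and pair no tumours. Epha7 rests on 35 to 84 counts a tumour, and 4 family genes were too low to test.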
